A study of Mus musculus with 16 samples.

Results

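These results concern the mouse microRNAs (miRNAs) that only the second of 2 array designs carries. They are the 92 mouse miRNA names found among the non-control spots of the design 2 arrays and on no design 1 array, out of 703 mouse miRNAs on either design. The study profiled 8 myeloid and dendritic cell (DC) populations on 16 one-colour Agilent miRNA arrays. Every population had 2 biological replicates, and replicate 1 lay on design 1 and replicate 2 on design 2. Under these names each of the 92 miRNAs was therefore measured on 1 array per population, in 1 pool of animals, and no test between populations was made. The probes of 3 of them, miR-669n, miR-467a-1* and miR-669l, also lie on design 1 under other names.

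The 3 progenitor populations were lineage-negative CD135+ bone marrow cells from pools of 15 mice: MPs (CD117+ CD115-, an abbreviation the labels do not spell out), macrophage and dendritic cell progenitors (MDPs, CD117+ CD115+) and common dendritic cell progenitors (CDPs, CD117 low CD115+). Gr1+ monocytes (CD11b+ CD115+ Gr1+) and plasmacytoid DCs (PDCs, B220+ CD11c int SiglecH+ CD317+) came from bone marrow in pools of 5. The 3 spleen populations, from pools of 8 mice, were CD11c+ CD3- and either CD4+, CD8+ or negative for both (CD4-CD8- DCs). CD86 is part of the gate of the CD8+ DCs alone. All cells were taken directly from C57Bl/6 females that were 6 weeks old, and the labels name no treatment.

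A miRNA is a short RNA cut from a hairpin precursor. It is loaded into an Argonaute protein and represses messenger RNAs that pair with its seed, the bases 2 to 8. miRNA catalogues grew quickly once deep sequencing of small RNAs began, and array designs were renewed with them. Part of the entries added in that period were later withdrawn because their sequences came from abundant RNAs such as transfer RNA (tRNA) and ribosomal RNA (rRNA). Of the 92 names, 11 belong to such withdrawn entries, as known from the miRNA catalogue and not from the array files: miR-1937b, miR-1937c, miR-2132, miR-2133, miR-2134, miR-2135, miR-2138, miR-2140, miR-2141, miR-2145 and miR-2146. They are called the fragment entries here.

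The probes that read the fragment entries show what the arrays captured. Each sequence below is the longest probe of the entry as the array files list it, 5′ to 3′, complementary to the RNA. The first pair is shown because these entries are known as tRNA pieces. The capitals mark TGG, the complement of the CCA end that every mature tRNA carries.

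miR-1937b: TGGgggctcgtcc

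miR-1937c: TGGgggctcttccg

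miR-1274a: TGGcgcctgaacag

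miR-1274a is not one of the 11 fragment entries, and is shown because its probed stretch also ends in CCA; the human entry of this name is known as a piece of a lysine tRNA. Of the 696 miRNAs of design 2, 9 (1.29%) have a probed stretch that ends in CCA, and 3 of them are these. A match of 3 letters is a description of the probe and not an assignment of the RNA. The probes of the further fragment entries, mostly known as pieces of rRNA, are shown with no capitals for all but miR-2140, which is given by its values alone.

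miR-2132: catcgcgtcaacacc

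miR-2133: aacgcttcgggcc

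miR-2134: gcaccccgtttcc

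miR-2135: gtttcggccccaag

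miR-2138: attccgccaagccc

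miR-2141: aacttttctgacacctcc

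miR-2145: aaccaggcccgacc

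miR-2146: cacatggaacccttct

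The array files place the probes of miR-1937b at 6 positions of the genome (mouse build mm9), those of miR-2134 at 6, those of miR-2135 at 5 and those of miR-2133 and miR-2145 at 2 each. Single positions are listed for the others, such as chr3:23467153-23467164 for miR-1937c, chrX:113401049-113401061 for miR-2132, chr3:120952707-120952718 for miR-2138, chr13:44845005-44845020 for miR-2141 and chr9:3258585-3258598 for miR-2146. None of the 11 matched a mature miRNA in the RefSeq table. Of the 37 miRNAs detected on at least 1 array, 20 had no match there, these 11 included. Among the 12 further miRNAs detected on all 8 arrays, 4 had no match. A missing match was thus not confined to the fragment entries, though all 11 lacked one.

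A second set of sequences is that of detected miRNAs that the RefSeq table (GRCm38.p6) does hold. They are shown because their seeds are what they would pair with, and the seed is in capitals. Of the 92 miRNAs, 55 matched a mature sequence there, 37 by name and 18 through the gene with an arm named later, and 13 of these 55 were detected on at least 1 array. The 13 have 13 distinct seeds and share 0. Those with a signal on all arrays or a difference past 2-fold below are shown, miR-669n further on.

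miR-1839-5p: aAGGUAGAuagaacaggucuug

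miR-3099: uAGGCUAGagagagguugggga

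miR-1306: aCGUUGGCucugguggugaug

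miR-3472: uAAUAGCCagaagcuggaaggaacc

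miR-3474: cCCUGGGAggagacguggauuc

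miR-2861: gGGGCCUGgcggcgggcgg

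miR-2137: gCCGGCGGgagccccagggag

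miR-1982*: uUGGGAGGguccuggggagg

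miR-3072*: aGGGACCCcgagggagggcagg

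The last 4 are rich in G and C. miR-1839-5p lies at chr7:81529919-81529940 on the plus strand, within the span of the long non-coding RNA gene 2900076A07Rik. miR-3099 (chr7:6803638-6803659, plus) lies within the span of Usp29. miR-1306 (chr16:18284248-18284268, minus) lies within Dgcr8, whose product is the RNA-binding partner of Drosha in cutting miRNA precursors. miR-3472 (chrX:145039390-145039414, plus) lies within Rtl4, a retrotransposon-derived gene. miR-3474 (chr2:158638583-158638604, plus) lies within Actr5, a subunit gene of a chromatin remodelling complex. miR-2137 (chrX:72992113-72992133, plus) lies within Zfp185, and miR-1982* (chr10:80828808-80828827, plus) within Oaz1, which encodes an antizyme that limits polyamine synthesis. miR-2861 (chr2:32712819-32712837, minus) lies in no gene span of the table. miR-3072* (chr12:109747893-109747914, plus) lies in the imprinted Dlk1 to Dio3 interval, which holds 3 of the 92 miRNAs, 1 of them detected. Of the 59 miRNAs placed on that build, 45 lay within the span of a gene. The span of a small nucleolar RNA (snoRNA) held 1, miR-664 (chr1:185243012-185243033, plus), which lies inside Snora36b and Rab3gap2.

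A miRNA was called detected on an array where any of its probes had a share of spots well above background of 0.5 or more. Of the 92 miRNAs, 37 (40.2%) were detected on at least 1 of the 8 arrays, 23 (25%) on all 8, 14 on some and 55 on none. All 11 fragment entries were detected on all 8 arrays. Among the other 81 miRNAs, 26 (32.1%) were detected on at least 1 array and 12 on all 8 (14.8%). The 604 miRNAs on both designs gave 208 (34.4%) and 105 (17.4%) on the same 8 arrays. Outside the fragment entries, the miRNAs carried by design 2 only were detected about as often as the rest of the array.

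The number of the 92 detected was lowest in MDPs, with 23, which are the miRNAs detected throughout. It was 28 in MPs, in CDPs, in Gr1+ monocytes and in CD4-CD8- DCs, 30 in CD4+ DCs, 31 in PDCs and 35 in CD8+ DCs. The miRNAs on both designs followed the same extremes, with 116 detected in MDPs and 174 in CD8+ DCs. The MDP array was also the dimmest, with a scale factor of 333 and 17.4% of spots well above background, against 465 and 25.4% for CD8+ DCs; the part of this in the counts was not tested.

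The 12 further miRNAs detected on all 8 arrays were miR-1949, miR-1944, miR-1927, miR-1274a, miR-3072*, miR-2861, miR-3099, miR-3470a, miR-1839-3p, miR-2137, miR-1939 and miR-1982*. miR-669n, miR-1839-5p and miR-3473 were detected in every population but MDPs. miR-3472 and miR-1306 were detected in Gr1+ monocytes, PDCs and the 3 spleen DC populations, and in none of the 3 progenitors. miR-664 was detected in MPs, CDPs, PDCs, CD4+ DCs and CD8+ DCs, and miR-2183 in MPs, CDPs and CD8+ DCs. miR-1971 was detected in PDCs and CD8+ DCs. On 1 array each, miR-3474, miR-767, miR-1940 and miR-2182 were detected in CD8+ DCs, miR-1941-5p in CD4+ DCs and miR-467a-1* in PDCs.

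The 55 on no array included relatives of detected miRNAs. The other arm or product of a detected hairpin was not detected for miR-1941-3p, miR-3072, miR-3099* and miR-1982.2. In the miR-669 family, miR-669l, miR-669m and miR-669o were not detected while miR-669n was. These are statements of the arrays' detection limit and not of absence.

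All values that follow are log2 signals divided by the 75th percentile of the array, taken over the 88 miRNAs that both designs carry and that were detected on all 16 arrays, so that the 92 miRNAs did not set their own scale. Values under a floor were raised to it, -5.78 on design 2 and -5.28 on design 1. For the 23 miRNAs detected on all 8 arrays, spots of 1 array agreed closely, with a median standard error of 0.024 and at most 0.114 on the log2 scale, but this is error within an array. Among the dimmer miRNAs it reached 0.150, for miR-1941-5p in CD4+ DCs. Differences are called past 2-fold where they reached 1 on the log2 scale and the miRNA was detected on at least 1 array compared. A yardstick for what 1 array per population can show comes from the miRNAs on both designs, whose 2 replicates gave a standard deviation of such differences of 0.16 to 0.41 on the log2 scale, depending on the comparison. It was taken over miRNAs detected on every array compared in both replicates, so it does not cover miRNAs near the floor. It also leaves out a shift shared by all miRNAs of a replicate. The 90th percentile of the absolute disagreement between replicates was 0.46 to 0.90. In sorted pools, fewer cells carrying a miRNA and less of it per cell cannot be told apart. Probes differ in brightness, so levels are compared within a miRNA and never between 2 of them.

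The population labels were set against miRNAs with known places in blood cells. miR-223, a myeloid miRNA, was highest in Gr1+ monocytes (4.30) and lowest in PDCs (0.09). The progenitor miRNAs miR-126-3p, miR-196b and miR-130a were highest in MPs and detected in the 3 progenitors and PDCs only. Of the lymphocyte and plasmacytoid miRNAs, miR-181a was highest in PDCs (0.83), while miR-150 was highest in CD4-CD8- DCs (-0.12), above PDCs (-0.55). miR-142-3p, a miRNA of blood cells, was detected on all 8. Of the 3 erythroid markers, miR-144 was detected on 0 arrays, miR-486 on the CD8+ DC array alone, and miR-451 on 7, from -5.26 in CDPs to -0.96 in CD8+ DCs. Of the 6 stromal, muscle, liver and epithelial markers, miR-200c was detected on 3 arrays and the other 5 on 0.

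The fragment entries took a large share of the light of every array. Summed over all 696 miRNAs of design 2, the 11 fragment entries made up 22.7% of the signal in MPs, 27.9% in MDPs, 25.7% in CDPs, 27.9% in Gr1+ monocytes, 27.4% in PDCs, 27.4% in CD4+ DCs, 39.9% in CD8+ DCs and 23.6% in CD4-CD8- DCs. The CD8+ DC array stood above the other 7, whose shares lay within 22.7% and 27.9%. The other 81 miRNAs made up 1.81% to 3.74%, highest in MDPs and lowest in PDCs. These shares need no scaling between arrays, and they weigh each probe by its brightness.

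**Figure D1:**
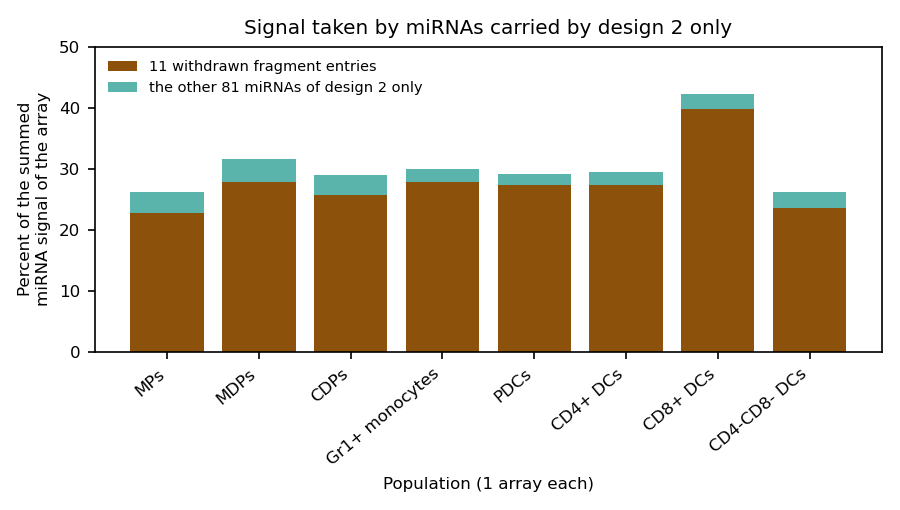
Percent of the summed miRNA signal of each design 2 array (y axis) that came from the 11 withdrawn fragment entries (brown) and from the other 81 miRNAs carried by design 2 only (green), for the 8 populations on the x axis, 1 array each with no error bars. The fragment entries reach 39.9% in CD8+ DCs and 22.7% to 27.9% on the other 7 arrays.

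All 11 fragment entries had their highest value in CD8+ DCs, where 31.2% of all 128 miRNAs of design 2 detected on all 8 arrays did. This count depended on the scaling. It was 6 of 11 with the percentile taken over every miRNA of the array and 5 under quantile normalization. In these scaled values both tRNA-derived entries were also high in MDPs. miR-1937b was 2.66 in MPs, 3.39 in MDPs, 2.62 in CDPs, 2.49 in Gr1+ monocytes, 1.95 in PDCs, 2.73 in CD4+ DCs, 3.84 in CD8+ DCs and 2.81 in CD4-CD8- DCs. miR-1937c was -2.55 in MPs, -2.01 in MDPs, -2.64 in CDPs, -2.41 in Gr1+ monocytes, -3.12 in PDCs, -2.63 in CD4+ DCs, -1.44 in CD8+ DCs and -2.56 in CD4-CD8- DCs. In both, the value of CD8+ DCs stood above that of MDPs, and PDCs were lowest. miR-1274a, with the same CCA end, was -2.86 in MPs, -2.26 in MDPs, -3.04 in CDPs, -3.60 in Gr1+ monocytes, -3.78 in PDCs, -3.18 in CD4+ DCs, -1.89 in CD8+ DCs and -3.09 in CD4-CD8- DCs, in the same order at both ends.

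miR-2141, miR-2138 and miR-2135 had Gr1+ monocytes or PDCs next to CD8+ DCs. miR-2141 was 2.43 in MPs, 2.85 in MDPs, 2.45 in CDPs, 3.28 in Gr1+ monocytes, 3.43 in PDCs, 2.86 in CD4+ DCs, 3.69 in CD8+ DCs and 2.50 in CD4-CD8- DCs. miR-2138 was 1.93 in MPs, 2.13 in MDPs, 1.58 in CDPs, 2.36 in Gr1+ monocytes, 1.32 in PDCs, 2.28 in CD4+ DCs, 3.43 in CD8+ DCs and 1.89 in CD4-CD8- DCs. miR-2135 was 0.94 in MPs, 1.17 in MDPs, 0.74 in CDPs, 1.47 in Gr1+ monocytes, 0.89 in PDCs, 1.19 in CD4+ DCs, 2.55 in CD8+ DCs and 0.86 in CD4-CD8- DCs. The value of CD8+ DCs exceeded the next highest by 0.27 for miR-2141, where PDCs came second, and by 1.07 for both miR-2138 and miR-2135, where Gr1+ monocytes came second. miR-2141 varied least among the fragment entries, over 1.27 on the log2 scale.

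miR-2140 had another shape. It was 1.08 in MPs, 1.31 in MDPs, 1.27 in CDPs, 2.55 in Gr1+ monocytes, 2.91 in PDCs, 2.51 in CD4+ DCs, 3.47 in CD8+ DCs and 2.07 in CD4-CD8- DCs. The 3 progenitors (1.08 to 1.31) lay below all 5 other populations (2.07 to 3.47), with no overlap, which held under each of the 6 alternative scalings and summaries tried.

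miR-2132 varied most among the fragment entries, over 3.22 on the log2 scale. It was -0.12 in MPs, -0.85 in MDPs, -1.25 in CDPs, -0.30 in Gr1+ monocytes, -1.40 in PDCs, 0.27 in CD4+ DCs, 1.81 in CD8+ DCs and -0.048 in CD4-CD8- DCs. The 3 spleen populations lay above the 5 marrow populations, though the gap between CD4-CD8- DCs and MPs was small, and with the brightest probe of each miRNA they overlapped. miR-2146 varied over 1.29, and was 1.54 in MPs, 1.76 in MDPs, 1.43 in CDPs, 1.57 in Gr1+ monocytes, 1.24 in PDCs, 1.69 in CD4+ DCs, 2.53 in CD8+ DCs and 1.74 in CD4-CD8- DCs.

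The remaining fragment entries showed less order outside CD8+ DCs. miR-2145 was -0.69 in MPs, -0.36 in MDPs, -0.80 in CDPs, -0.39 in Gr1+ monocytes, -0.48 in PDCs, -0.68 in CD4+ DCs, 0.85 in CD8+ DCs and -0.85 in CD4-CD8- DCs. On the other 7 arrays it stayed within 0.50, and CD8+ DCs exceeded the highest of them by 1.21. miR-2134 was -0.60 in MPs, -0.39 in MDPs, -0.84 in CDPs, -0.62 in Gr1+ monocytes, -1.57 in PDCs, -1.31 in CD4+ DCs, 0.40 in CD8+ DCs and -1.20 in CD4-CD8- DCs. miR-2133 was 0.0022 in MPs, 0.29 in MDPs, -0.33 in CDPs, 0.029 in Gr1+ monocytes, -1.06 in PDCs, -0.91 in CD4+ DCs, 0.32 in CD8+ DCs and -0.88 in CD4-CD8- DCs. In miR-2133 the values of CD8+ DCs and MDPs differed by 0.03, which the yardstick of replicate error does not separate, and the 2 other spleen populations were low.

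miR-720, a withdrawn tRNA fragment that both designs carry, gives a comparison with replicates. On design 2 it lay between -0.44 in PDCs and 1.14 in MDPs, and CD8+ DCs exceeded the mean of the other spleen DCs by 0.42. On design 1 it lay between -0.04 and 0.53, and that difference was 0.10. Neither replicate was past 2-fold, and the highest population differed between them.

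Among the 12 other miRNAs detected on all 8 arrays, 9 were also highest in CD8+ DCs under the main scaling, against 31.2% of all 128 such miRNAs. miR-2861, known for promoting bone-forming osteoblasts by repressing a histone deacetylase, had the widest gap. It was -3.12 in MPs, -3.72 in MDPs, -4.29 in CDPs, -3.69 in Gr1+ monocytes, -4.71 in PDCs, -2.95 in CD4+ DCs, -1.03 in CD8+ DCs and -3.23 in CD4-CD8- DCs. The value of CD8+ DCs exceeded that of CD4+ DCs, the next highest, by 1.93. Its 2 probes are 9 and 10 bases long and hold only G and C.

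miR-2137 was -3.79 in MPs, -3.81 in MDPs, -4.26 in CDPs, -3.64 in Gr1+ monocytes, -4.56 in PDCs, -3.94 in CD4+ DCs, -2.62 in CD8+ DCs and -4.05 in CD4-CD8- DCs. miR-1982* was -4.27 in MPs, -4.14 in MDPs, -4.63 in CDPs, -4.14 in Gr1+ monocytes, -5.01 in PDCs, -4.50 in CD4+ DCs, -3.25 in CD8+ DCs and -4.59 in CD4-CD8- DCs. Over the 253 pairs of the 23 miRNAs the median Pearson r was 0.63, and over the 55 pairs of fragment entries 0.74. The highest of all was that of miR-2137 with miR-1982* (r = 0.988, Spearman rho = 0.929, n = 8 arrays that share the scaling), and r was 0.910 without the CD8+ DC and PDC arrays, which lie farthest from the median. The closest partner of miR-2861 was the fragment entry miR-2132 (r = 0.986, rho = 0.976, n = 8, and r = 0.948 without the same 2 arrays).

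miR-1939 was -4.08 in MPs, -3.77 in MDPs, -4.62 in CDPs, -4.49 in Gr1+ monocytes, -5.09 in PDCs, -3.91 in CD4+ DCs, -3.17 in CD8+ DCs and -4.11 in CD4-CD8- DCs. miR-1944, whose probes have the lowest GC share of the miRNAs detected throughout, was -0.47 in MPs, -0.43 in MDPs, -0.95 in CDPs, -1.27 in Gr1+ monocytes, -1.46 in PDCs, -0.81 in CD4+ DCs, -0.16 in CD8+ DCs and -0.68 in CD4-CD8- DCs. Both were lowest in PDCs. miR-3072*, of the Dlk1 to Dio3 interval, was -3.40 in MPs, -3.26 in MDPs, -3.60 in CDPs, -3.14 in Gr1+ monocytes, -3.77 in PDCs, -3.11 in CD4+ DCs, -2.40 in CD8+ DCs and -3.07 in CD4-CD8- DCs, and its spleen values lay above its marrow values by a gap of only 0.02 between CD4+ DCs and Gr1+ monocytes, which does not exceed the spread of replicates.

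miR-3470a was -4.19 in MPs, -3.89 in MDPs, -4.29 in CDPs, -3.16 in Gr1+ monocytes, -3.77 in PDCs, -3.13 in CD4+ DCs, -3.07 in CD8+ DCs and -3.58 in CD4-CD8- DCs. Its 3 progenitor values lay below the 5 others under the main processing, and the groups overlapped under normexp background correction. The gap, between MDPs (-3.89) and PDCs (-3.77), does not exceed the spread of replicates. CD8+ DCs, CD4+ DCs and Gr1+ monocytes were close to each other at the top.

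**Figure D2:**
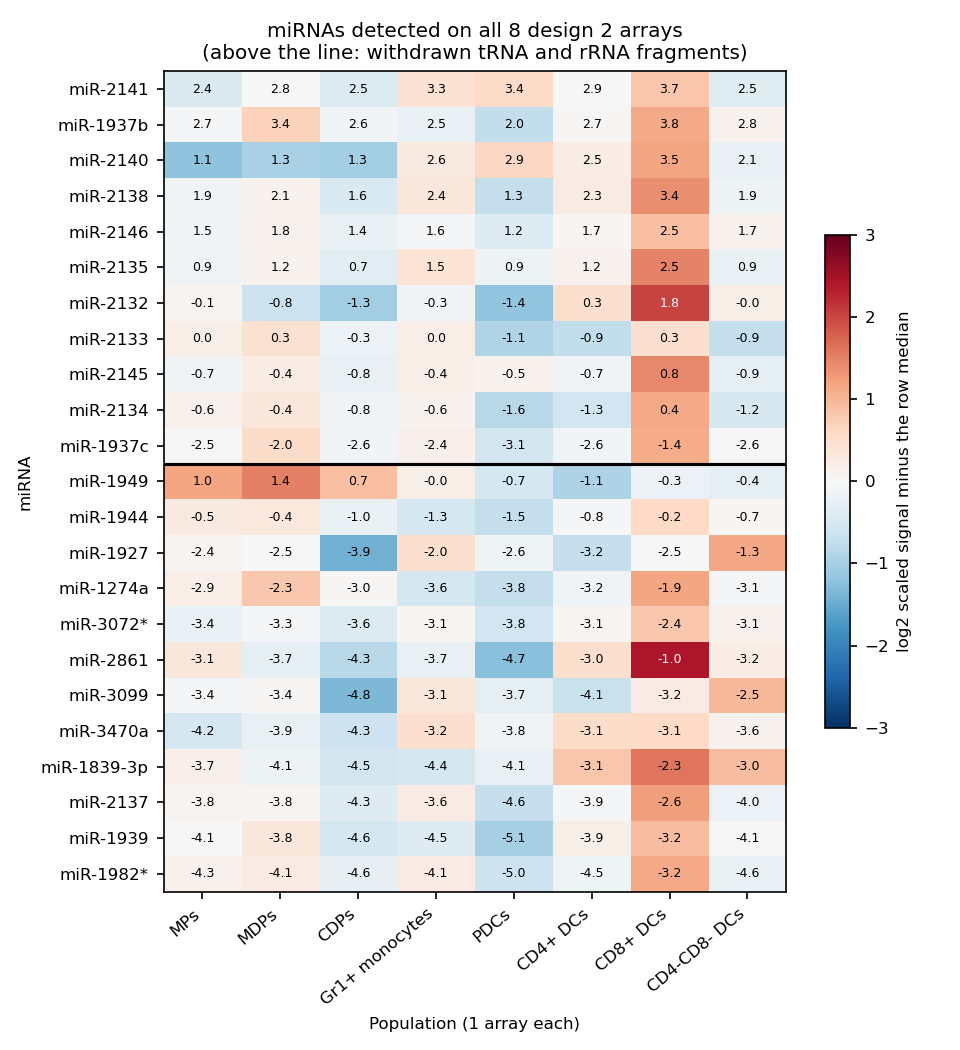
Heat map of the 23 miRNAs detected on all 8 design 2 arrays (rows) in the 8 populations (columns, 1 array each). Numbers are log2 scaled signals, colours their difference from the row median (red higher, blue lower), and the line divides the 11 fragment entries from the 12 others; CD8+ DCs are highest in 20 of the 23 rows and PDCs lowest in 14.

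CD8+ DCs were highest for 20 of the 23 miRNAs detected on all 8 arrays. Over all 128 miRNAs of design 2 detected on all 8 arrays, 40 (31.2%) were highest there. The difference between CD8+ DCs and the median of the other 7 populations was 0.66 to 2.12 over the fragment entries, with a median of 1.24, and -0.33 to 2.66 over the 12 others, with a median of 0.90. For the 105 miRNAs on both designs detected on the same arrays the median was 0.24 in replicate 2, and for 93 it was 0.33 in replicate 1. The count depended on the scaling: CD8+ DCs were highest for 11 of the 23 with the percentile taken over every miRNA of the array and for 12 under quantile normalization, and for 6 and 5 of the 11 fragment entries. PDCs were lowest for 14 of the 23, against 31.2% of the 128; the PDC array had the highest scale factor, 876, and the part of this was not tested.

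The 3 miRNAs detected throughout that were not highest in CD8+ DCs were miR-1949, miR-1927 and miR-3099. miR-1949 was 1.00 in MPs, 1.35 in MDPs, 0.73 in CDPs, -0.0019 in Gr1+ monocytes, -0.69 in PDCs, -1.10 in CD4+ DCs, -0.34 in CD8+ DCs and -0.44 in CD4-CD8- DCs. MDPs were highest and CD4+ DCs lowest. The 3 progenitors lay above the 5 other populations, under the main processing and all 6 alternatives. It was the only one of the 23 with its highest value in a progenitor.

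miR-1927, from the span of Rabgap1l, was -2.38 in MPs, -2.45 in MDPs, -3.91 in CDPs, -1.98 in Gr1+ monocytes, -2.59 in PDCs, -3.16 in CD4+ DCs, -2.48 in CD8+ DCs and -1.31 in CD4-CD8- DCs. miR-3099 was -3.45 in MPs, -3.39 in MDPs, -4.76 in CDPs, -3.07 in Gr1+ monocytes, -3.69 in PDCs, -4.10 in CD4+ DCs, -3.17 in CD8+ DCs and -2.45 in CD4-CD8- DCs. Both were lowest in CDPs and highest in CD4-CD8- DCs, with Gr1+ monocytes second. Their values correlated with r = 0.983 (rho = 0.905, n = 8 arrays), and with r = 0.915 without CDPs and CD4-CD8- DCs. Their genes lie on chromosomes 1 and 7.

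miR-1839 gave a signal from both arms of its hairpin. The precursor is shown with both probed stretches in capitals, because the arms differed between populations.

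Mir1839: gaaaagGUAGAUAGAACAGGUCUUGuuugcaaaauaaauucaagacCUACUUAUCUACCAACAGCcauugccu

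The hairpin spans chr7:81529916-81529988 (GRCm38.p6, plus strand). miR-1839-3p, read by the second stretch, was -3.74 in MPs, -4.05 in MDPs, -4.45 in CDPs, -4.41 in Gr1+ monocytes, -4.12 in PDCs, -3.05 in CD4+ DCs, -2.30 in CD8+ DCs and -2.96 in CD4-CD8- DCs. miR-1839-5p, read by the first, was -5.56 in MPs, -5.78 in MDPs, -5.78 in CDPs, -5.03 in Gr1+ monocytes, -3.30 in PDCs, -4.10 in CD4+ DCs, -3.90 in CD8+ DCs and -4.33 in CD4-CD8- DCs, with no detection in MDPs and CDPs at the floor. The spleen populations lay above the marrow populations for the 3p arm. For the 5p arm PDCs were highest, while the 3p arm in PDCs was within the range of the progenitors. The gap between the 3p arm in CD4+ DCs, the lowest spleen value, and in MPs, the highest marrow value, was 0.69, but the groups overlapped under normexp background correction. The 5p arm in PDCs exceeded that in CD8+ DCs, the next highest, by 0.59.

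**Figure D3:**
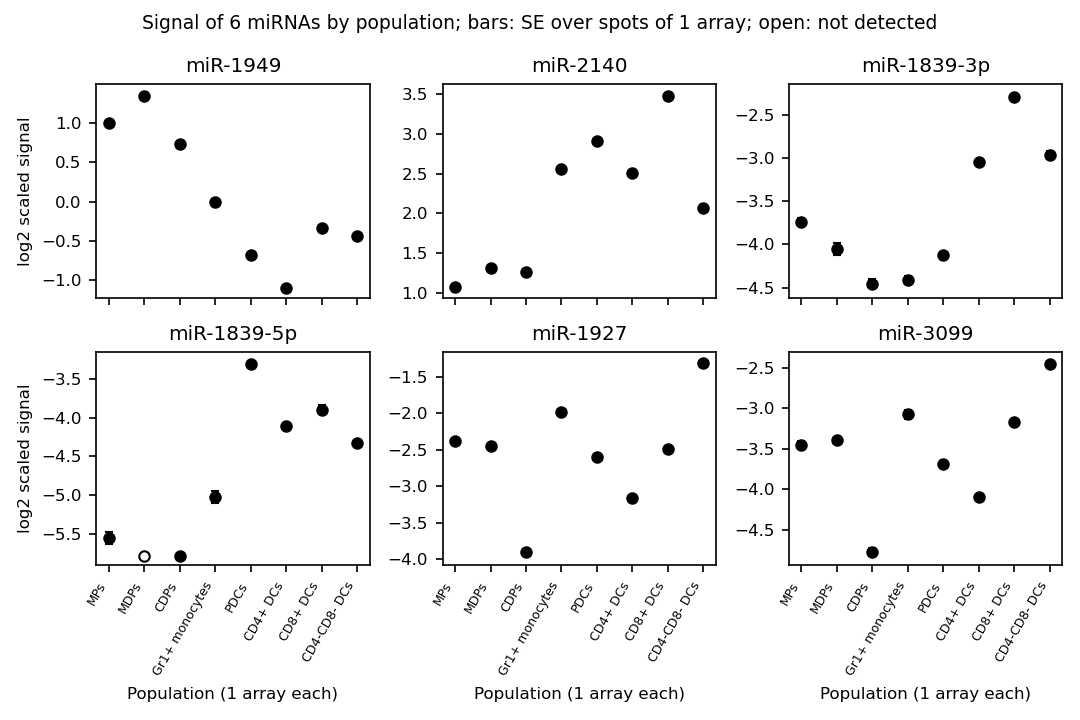
Log2 scaled signal (y axes, each with its own range) of 6 miRNAs in the 8 populations (x axes, 1 array each); bars are the standard error over the spots of 1 array, mostly smaller than the symbol, and the open symbol is a population in which the miRNA was not detected. miR-1949 is highest and miR-2140 lowest in the 3 progenitors, the arms of miR-1839 peak in CD8+ DCs and in PDCs, and miR-1927 and miR-3099 share their lowest value in CDPs.

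Of the 23 miRNAs detected throughout, 3 had progenitors that did not overlap the 5 other populations (miR-1949 above, miR-2140 and miR-3470a below), where 33 of all 128 such miRNAs (25.8%) did. Likewise 3 had spleen populations that did not overlap the marrow (miR-2132, miR-1839-3p and miR-3072*, all above), where 28 of 128 (21.9%) did. Both counts lie below the share over the array.

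A pair of dimmer miRNAs was detected outside the progenitors only. miR-1306 was -5.78 in MPs, -5.78 in MDPs, -5.78 in CDPs, -4.52 in Gr1+ monocytes, -4.71 in PDCs, -4.21 in CD4+ DCs, -3.98 in CD8+ DCs and -4.86 in CD4-CD8- DCs. miR-3472 was -5.78 in MPs, -5.78 in MDPs, -5.78 in CDPs, -4.06 in Gr1+ monocytes, -4.77 in PDCs, -4.35 in CD4+ DCs, -3.81 in CD8+ DCs and -5.10 in CD4-CD8- DCs. For both, all 3 progenitors were not well above background and lay at the floor.

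miR-3473 was -5.37 in MPs, -5.78 in MDPs, -5.78 in CDPs, -5.61 in Gr1+ monocytes, -4.19 in PDCs, -4.31 in CD4+ DCs, -3.99 in CD8+ DCs and -5.37 in CD4-CD8- DCs. miR-3474 was -5.78 in MPs, -5.78 in MDPs, -5.78 in CDPs, -5.78 in Gr1+ monocytes, -5.78 in PDCs, -5.68 in CD4+ DCs, -4.36 in CD8+ DCs and -5.78 in CD4-CD8- DCs, and only its value in CD8+ DCs was detected. Of the other miRNAs detected on some arrays, miR-664 lay between the floor and -4.67 and miR-2183 between the floor and -4.91, both with the highest value in MDPs, where neither was detected. miR-1971, miR-767 and miR-1940 reached -5.32, -5.21 and -5.21. miR-1941-5p, miR-2182 and miR-467a-1* lay at the floor everywhere.

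miR-669n was detected on 7 arrays, and design 1 holds a replicate of it, since both of its probes lie there under the name miR-669c. Its RefSeq sequence, with the seed in capitals, is shown because its probes were read on both designs.

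miR-669n: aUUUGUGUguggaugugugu

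On design 2 it was -5.26 in MPs, -5.65 in MDPs, -4.96 in CDPs, -4.49 in Gr1+ monocytes, -4.55 in PDCs, -3.91 in CD4+ DCs, -4.62 in CD8+ DCs and -4.04 in CD4-CD8- DCs, with no detection in MDPs. On design 1 the same probes were detected on 4 arrays, with -5.21 in MPs, -5.28 in MDPs, -4.99 in CDPs, -5.27 in Gr1+ monocytes, -4.47 in PDCs, -5.17 in CD4+ DCs, -4.02 in CD8+ DCs and -5.22 in CD4-CD8- DCs. The values in MPs, MDPs, Gr1+ monocytes, CD4+ DCs and CD4-CD8- DCs lay at or near the design 1 floor of -5.28. The highest population was CD4+ DCs in replicate 2 and CD8+ DCs in replicate 1, so the order of the populations was not shared. The probes of miR-467a-1* lie on design 1 as miR-467a*, where 0 arrays detected them, and 1 probe of miR-669l lies there as that of miR-669d, detected on 0 arrays of either design.

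MDPs were compared with MPs, which differ in CD115. None of the 28 miRNAs detected in either population was past 2-fold; 20 were above 0 and 8 below, with differences from -0.72 to 0.73 and a median of 0.21. Over all 194 miRNAs of design 2 detected in either, 9.28% were past 2-fold, 1.55% higher and 7.73% lower. Examples were miR-1937b, which differed by 0.73, miR-2132 by -0.72 and miR-1274a by 0.60. In this comparison the replicate standard deviation of the miRNAs on both designs was 0.29.

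Between CDPs and MDPs, 2 of the 28 miRNAs were past 2-fold, where 3.59% of all 167 were. Both were lower in CDPs, miR-1927 (-1.46) and miR-3099 (-1.37), against a replicate standard deviation of 0.16. The miRNAs on both designs had 4 past 2-fold here in replicate 2. In replicate 1 all 4 had the same sign, but 0 were past 2-fold. The median difference over 104 miRNAs on both designs was -0.03 in replicate 1 and -0.29 in replicate 2. All 11 fragment entries were lower in CDPs than in MDPs (-0.77 to -0.04), and none past 2-fold, but 1 of the 11 was above 0 under 5 of the 6 alternatives. The median of all 167 was also below 0, at -0.33, and moved to -0.06 with the percentile over every miRNA of the array and to 0.00 under quantile normalization. Under the latter, and under normexp, neither miR-1927 nor miR-3099 was past 2-fold.

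In Gr1+ monocytes, 6 of 28 miRNAs were past 2-fold from MDPs, where 23.6% of all 178 were. miR-2140 was higher by 1.24 and miR-1949 lower (-1.36). miR-1274a was lower (-1.34). The other 3, miR-3472 (1.72), miR-1306 (1.26) and miR-669n (1.16), were higher but not detected in MDPs, so that their size is set by the floor. miR-3472 was at least 1.25-fold higher, and the bound for miR-1306 and miR-669n was below 1, so no fold is given. These 2 turned under normexp background correction, to -0.036 and -0.082. For miR-669n the same difference in replicate 1 was 0.01. Both values lay at or next to the floor of design 1 (-5.28), so it shows neither a difference nor its absence. The replicate standard deviation was 0.38. Under the scalings over every miRNA and over the miRNAs of design 2 detected throughout, the split of 4 higher and 2 lower became 3 and 4.

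In PDCs, 8 of 32 miRNAs were past 2-fold from CDPs, 7 higher and 1 lower, where 25.7% of all 206 were, 19.4% higher and 6.31% lower. miR-1839-5p was higher by 2.48, which is 5.58-fold, and miR-3473 by 1.59, both with CDPs at the floor, which sets these sizes. miR-2140 was higher by 1.64, miR-1927 by 1.32 and miR-3099 by 1.08. Under normexp the difference was 0.40 for miR-1839-5p, 0 for miR-3473, 0.41 for miR-1927 and 0.01 for miR-3099, none of them past 2-fold. miR-1306 and miR-3472, not detected in CDPs, were at least 1.42-fold and 1.36-fold higher. miR-1949 was lower (-1.42). The replicate standard deviation was 0.38, and the split of 7 higher and 1 lower depended on the scaling: it was 6 and 5 with the percentile over every miRNA, 3 and 5 when scaled over the miRNAs of design 2 detected throughout, and 4 and 5 under quantile normalization.

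The mean of the 3 spleen DC populations was set against CDPs, the progenitor that gives rise to DCs. Of 36 miRNAs, 11 were past 2-fold higher and 1 lower, where 30.1% of all 226 were past 2-fold, 21.7% higher and 8.41% lower. miR-2132 was higher by 1.93, miR-2861 by 1.89, miR-1839-3p by 1.68, miR-1839-5p by 1.67, miR-1927 by 1.59, miR-3099 by 1.53, miR-2140 by 1.42, miR-3473 by 1.22 and miR-3470a by 1.04. The sizes for miR-1839-5p and miR-3473 are set by the floor, at which both lay in CDPs: they were 2.12 and 1.46 without it, and 0.33 and 0.21 under normexp, not past 2-fold. miR-1306 and miR-3472 were at least 1.83-fold and 1.74-fold higher. miR-1949 was lower (-1.36). The replicate standard deviation was 0.25. The differences of miR-1927 and miR-3099 here and in the comparison of PDCs use the same CDP array, in which both were lowest.

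CD8+ DCs were set against the mean of the other spleen DCs. Of 36 miRNAs, 15 were past 2-fold higher and 0 lower, where 18.6% of all 220 were past 2-fold, 16.8% higher and 1.82% lower. They were 10 of the 11 fragment entries and 5 others. Among the fragment entries the difference was 1.70 for miR-2132, 1.65 for miR-2134, 1.62 for miR-2145, 1.52 for miR-2135, 1.35 for miR-2138, 1.22 for miR-2133, 1.19 for miR-2140, 1.16 for miR-1937c, 1.07 for miR-1937b and 1.02 for miR-2141. miR-2146, at 0.81, stayed under 2-fold. The 5 others were miR-2861 (2.06), miR-2137 (1.37), miR-1982* (1.30), miR-1274a (1.25) and miR-3474, which was not detected in the other spleen DCs and was at least 1.98-fold higher.

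The 184 miRNAs on both designs tested in this comparison had 22 past 2-fold higher and 4 lower. Of these 26 past 2-fold in replicate 2, 26 had the same sign in replicate 1 and 18 were past 2-fold there too. The replicate standard deviation was 0.41, the largest of the 6 comparisons. The median of all miRNAs tested was 0.26 and that of the fragment entries 1.22. Relative to the median of all, the fragment entries stood higher by 0.97, and by 0.72 to 1.01 under the 6 alternatives. All 11 were above 0 in each, but the count past 2-fold was 4 of 11 with the percentile over every miRNA and 5 under quantile normalization. The CD8+ DC array also had the highest share of spots well above background (25.4%) and the highest miR-451, and its cells alone were gated on CD86. Its scale factor, 465, was below those of CD4+ DCs (659) and CD4-CD8- DCs (553). The part of these traits in the result was not tested.

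The base composition of the probes was set beside the difference in CD8+ DCs. The probes of the fragment entries had a median GC share of 64.2%, those of the detected miRNAs 58.6% and those of the 55 not detected 52.1%. Among the 14 miRNAs detected throughout with a GC share of at least 60%, the difference between CD8+ DCs and the other spleen DCs had a median of 1.27, and 11 were past 2-fold. Between 50% and 60% the median was 1.00 over 4 miRNAs, between 40% and 50% it was 0.57 over 4, and the 1 miRNA under 40%, miR-1944, was at 0.59.

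The miRNAs on both designs, which have replicates, show the same measure on both designs. At a GC share of at least 60%, 25 of them had a median of 0.48 in replicate 2 and 0.79 in replicate 1, with 7 and 10 past 2-fold higher. Between 50% and 60% the medians over 27 were -0.05 and 0.28, between 40% and 50% over 42 they were 0.06 and 0.12, and under 40% over 19 they were 0.07 and -0.03. In both replicates the bin of at least 60% was the highest. Within that bin the fragment entries, 7 in number, lay between 1.07 and 1.65, and the miRNAs on both designs between -1.001 and 1.70 in replicate 2. The fragment entries with a lower GC share were miR-2132 at 58.6% (1.70), miR-2140 at 51.7% (1.19), miR-2146 at 51.7% (0.81) and miR-2141 at 42.8% (1.02). The part of base composition in the difference was not tested.

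**Figure D4:**
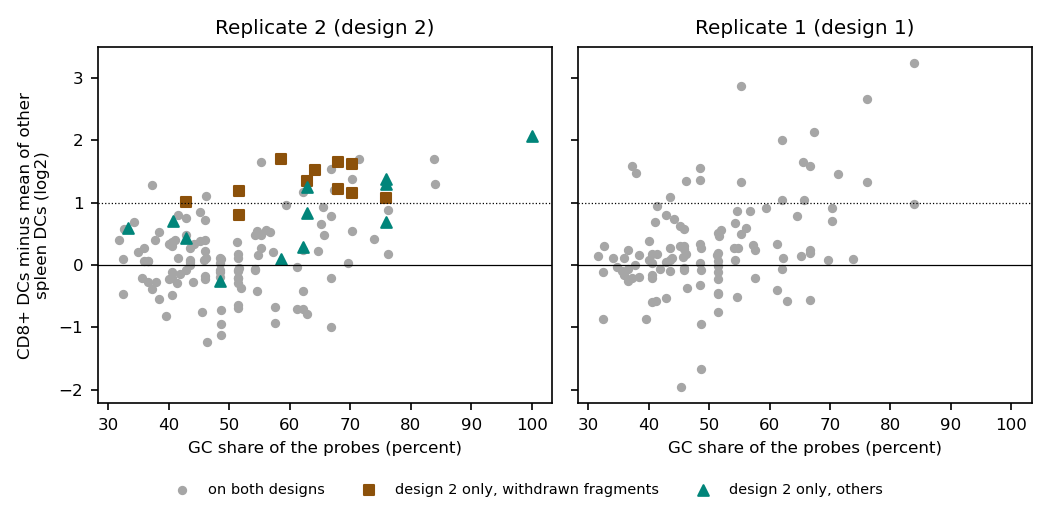
Difference between CD8+ DCs and the mean of the other spleen DCs (log2, y axis; the dotted line is 2-fold) against the GC share of the probes of each miRNA (percent, x axis), for miRNAs carried by design 2 only detected on all 8 arrays and miRNAs on both designs detected on all spleen arrays. Brown squares are fragment entries, green triangles the other miRNAs carried by design 2 only, and grey points miRNAs on both designs in replicate 2 (left) and replicate 1 (right); the highest median of the grey points lies at a GC share of at least 60% in both replicates, 0.48 and 0.79.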

How the data were processed

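RNA of 8 sorted populations had been labelled with Cy3 and hybridised to 16 Agilent miRNA arrays. The values are spot intensity readings on a linear scale as deposited, with the background already removed. Per the file headers the software was Feature Extraction 10.7.3.1, while the submitters' processing notes name version 9.1. Probe positions are those of build mm9 per the file headers.

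Spots marked as outliers were left out, the rest averaged to probes and probes to miRNAs, and each array was scaled by the 75th percentile of 88 miRNAs, those on both designs and detected on all 16 arrays (factors of 333 to 876 on design 2). Values under a floor were raised to it, which was taken as the 5th percentile of the detected log2 values of an array and its median over design 2, before differences were taken. Where the dim side was not detected, a lower bound was computed against the lowest signal of a detected probe or the measured value, whichever was higher. No spot was saturated (0), and 17.4% to 25.4% of spots were well above background. The number of arrays, 1 per population, limits the precision, and no p-value was computed.

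The members, the fragment list and the 6 comparisons were chosen with earlier results of these data known. Every miRNA detected at least once is named; those detected on all 8 arrays or past 2-fold are given with their values. Alternatives were 3 other scalings, normexp background correction (limma 3.58.1, R 4.3.3, offset 50), the brightest probe of each miRNA, no floor, and other detection rules. The summary, scaling and 2-fold steps were tested on simulated spots of brighter miRNAs. That test did not cover the detection calls or the dim miRNAs. Left out were 7 mouse miRNAs carried by design 1 only and the viral miRNAs of that design. Sequences come from the array files and from RefSeq (GRCm38.p6).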

Additional observations from a re-analysis of the deposited data

How the results depend on the processing

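With 1 array per population there was no replicate to leave out. No paired analysis was possible because all but 3 of the 92 miRNAs lie on the replicate 2 arrays alone. Of those 3 only miR-669n had a difference past 2-fold, 1.16 in Gr1+ monocytes against MDPs. In replicate 1 this difference was 0.01, between values at or next to the floor of design 1. The number detected on at least 1 array was 30 to 37 and on all 8 arrays 20 to 23 over the detection rules tried, and the 11 fragment entries were detected throughout under each. Of the 43 differences past 2-fold, 43 remained so without a floor and from the rounded series table, 34 when scaled over the miRNAs of design 2 detected on all 8 arrays, 33 from the brightest probe, 26 when scaled over all miRNAs, 24 under quantile normalization and 16 under normexp, whose offset of 50 compresses dim signals. Under quantile normalization the count past 2-fold was 2 for MDPs against MPs, 0 for CDPs against MDPs, 7 for spleen DCs against CDPs and 7 for CD8+ DCs against the other spleen DCs. Under normexp it was 0 for CDPs, 2 for Gr1+ monocytes, 3 for PDCs, 3 for spleen DCs and 9 for CD8+ DCs. Scaled over all miRNAs it was 7 for spleen DCs and 6 for CD8+ DCs. It was 5 for PDCs from the brightest probe, 1 for MDPs without a floor, and 3 for Gr1+ monocytes among miRNAs detected on both arrays. Only miR-1306 (-0.036) and miR-669n (-0.082) reversed, both in Gr1+ monocytes against MDPs under normexp; the cause of these changes was not tested. In CD8+ DCs against the other spleen DCs, 15 higher and 0 lower became 5 and 1 when scaled over all miRNAs and 6 and 1 under quantile normalization. Dim miRNAs are limited by their signal over background.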
